A study of Mus musculus with 4 samples.

Results

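Mouse heart droplets that carried B cell and macrophage transcripts together were described here, and are called mixed droplets. They were chosen from single-cell captures by 4 sums of raw UMIs (unique molecular identifiers, each counting 1 captured transcript). A mixed droplet had at least 5 UMIs of Cd79a, Cd79b and Ms4a1 and at least 20 UMIs of C1qa, C1qb and C1qc. It had at most 1 UMI of Cd3d, Cd3e and Cd3g and at most 2 UMIs of Csf3r and Retnlg. The rule took 255 of 6836 kept droplets, 21 of 4278 in the anti-CD40 library and 234 of 2558 in the isotype library. Since these genes chose the droplets, their values are a description and support nothing.

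B cells are the lymphocytes that make antibodies. Cd79a and Cd79b carry the signal of their antigen receptor, and Ms4a1 encodes the surface protein CD20. Macrophages are the resident phagocytes of the heart: they take up dying cells and debris, present peptides on MHC class II, and produce C1q, the recognition part of the classical complement pathway. In the healthy mouse heart B cells are found mostly in the small vessels, and macrophages lie between the muscle cells beside those vessels.

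Transcripts and surface proteins were read from the same droplets (CITE-seq). The anti-CD40 library came from C57BL6J mice given an agonist antibody against CD40, a receptor on B cells and macrophages. The isotype library came from C57BL6J mice given rat IgG. Per the series description each library pooled the digested hearts of 4 mice, and the labels give neither age nor sex. Atria had been removed. The sort is given in 2 ways: CD45+ DAPI- cells in the titles, and DRAQ5+ DAPI- cells in the design text. Each group is 1 library, so nothing was tested between groups. Droplets are not replicates, and all intervals are exact 95% intervals that cover counting error only. Kept droplets had a median of 8284.5 gene UMIs in the anti-CD40 library and 5446 in the isotype library. The libraries shared 13 barcodes, 6 of them kept in both, and none of these was a mixed droplet in either library. No droplet was removed as a doublet. A droplet with 1 cell and a droplet with several cells cannot be told apart by the rule.

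For comparison, B cells of the isotype library were the 360 droplets that met the B cell minimum with at most 9 C1q UMIs. Macrophages were the 619 droplets that met the C1q minimum with at most 4 B cell UMIs. Both obeyed the limits on Cd3 and neutrophil genes. NK-like droplets, 106 in the isotype library, gave the level of each measure in cells of another lineage. They had at least 3 UMIs of Ncr1 and Klrb1c and were capped on the rule genes.

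In the isotype library mixed droplets were 9.15% of kept droplets (8.06 to 10.3). They made up 234 of the 610 droplets that met the B cell minimum (38.4%, 34.5 to 42.4) and 234 of the 853 that met the C1q minimum (27.4%, 24.5 to 30.6). In the anti-CD40 library mixed droplets were 0.491% of kept droplets (0.304 to 0.749). There they were 21 of the 34 droplets that met the B cell minimum (61.8%, 43.6 to 77.8) and 21 of the 2113 that met the C1q minimum (0.994%, 0.616 to 1.52). Anti-CD40 B cells with at most 9 C1q UMIs numbered 12, against 360 in the isotype library.

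C1q at the minimum was also met by droplets of other lineages that held at most 4 B cell UMIs. In the anti-CD40 library 43.0% of 284 droplets with T cell genes, 39.9% of 459 with neutrophil genes and 19.1% of 152 with NK cell genes met it. In the isotype library the shares were 25.9% of 58 (15.3 to 39.04), 26.8% of 183 (20.51 to 33.8) and 5.31% of 113 (1.97 to 11.2), in the same order.

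Few droplets lay near the C1q limit. In the isotype library 3 mixed droplets had 20 to 24 C1q UMIs. Of droplets that met the B cell minimum, 8 had 15 to 19 C1q UMIs and 8 had 10 to 14, and these 16 belong to none of the 3 classes. The B cell limit was less sparse: 15 mixed droplets had 5 or 6 B cell UMIs, and 63 macrophages had 3 or 4. The median C1q sum was 151 UMIs in mixed droplets, 1 in B cells and 108 in macrophages. The median B cell sum was 38, 27 and 1 UMIs in the same order.

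**Figure D1:**
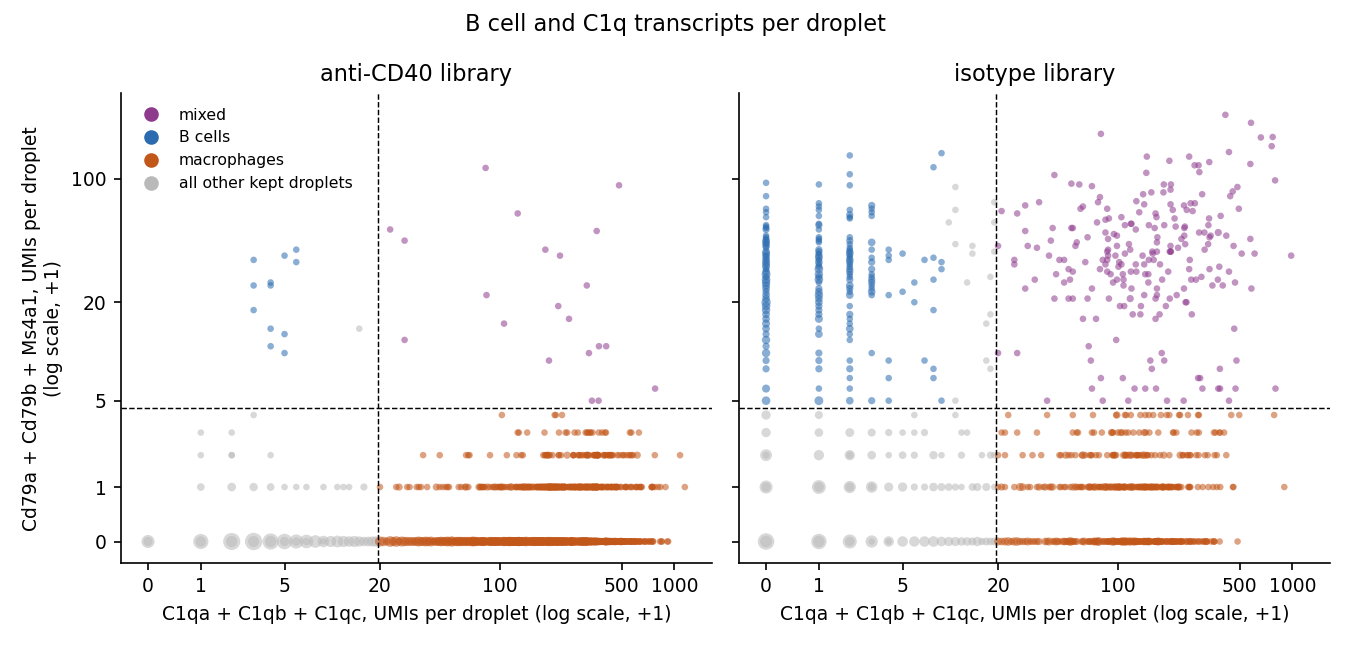
UMIs of Cd79a, Cd79b and Ms4a1 (vertical) against UMIs of C1qa, C1qb and C1qc (horizontal) in every kept droplet within the limits on Cd3 and neutrophil genes, on log scales with 1 added, for the anti-CD40 library and the isotype library; point size grows with the number of droplets at that position, and dashed lines mark the minimums of 5 and 20. The 234 isotype mixed droplets stand apart from the B cells along the C1q axis, with 16 droplets at 10 to 19 C1q UMIs between them, and the anti-CD40 library holds 21 mixed droplets.

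Mixed droplets were checked against marker lists that the rule did not use. A list of 25 other B lineage genes, among them Pax5, Ebf1 and Ighm, summed to 9425 CPM (UMIs per 1000000 gene UMIs) in mixed droplets, 23876 in B cells, 1436 in macrophages and 984 in NK-like droplets of the isotype library. A list of 25 other macrophage genes, among them Csf1r, Mertk and Apoe, summed to 32645 CPM in mixed droplets, 2179 in B cells, 45408 in macrophages and 8494 in NK-like droplets. The label therefore held: both programmes were well above the NK-like level. That level is no empty floor for the macrophage list, on which NK-like droplets were above B cells. Lists of other cells summed to less than both of these in mixed droplets. Plasmacytoid dendritic cell genes had 419 CPM, conventional dendritic cell genes 281, T cell genes 115 and fibroblast genes 112. Neutrophil genes had 85.7 CPM, cardiomyocyte genes 70.6, endothelial genes 54.8 and NK cell genes 42.4. The rule's limits on Cd3 and neutrophil genes had left out droplets rich in T cell or neutrophil transcripts.

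Single defining genes were seen in the same droplets. Each droplet was thinned to 2000 UMIs to compare shares at 1 depth, which left out 0 mixed droplets, 29 B cells, 15 macrophages and 4 NK-like droplets. Pax5, the factor that fixes B cell identity, had a UMI in 26.9% of thinned mixed droplets (21.4 to 33.1), 41.7% of B cells, 1.82% of macrophages and 1.96% of NK-like droplets. Ebf1, which acts with Pax5, had one in 69.2% of mixed droplets (62.9 to 75.1), 95.5% of B cells, 14.1% of macrophages and 3.92% of NK-like droplets. Csf1r, the receptor for the growth factor that macrophages depend on, had one in 67.9% of mixed droplets (61.6 to 73.9), 5.14% of B cells, 84.9% of macrophages and 5.88% of NK-like droplets. Without thinning, Ebf1 had a UMI in 100% of mixed droplets and Csf1r in 99.6%. Each of these 3 shares in mixed droplets lay between those of B cells and macrophages, and above the NK-like one.

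Mixed droplets were the deepest of the 3 classes. Their median was 17857.5 gene UMIs, against 4576.5 in B cells and 7920 in macrophages of the isotype library. That is 1.43 times the 12496.5 UMIs that a median B cell and a median macrophage have together. Antibody tag UMIs had a median of 9720 in mixed droplets, 1917.5 in B cells and 3728 in macrophages, so that the mixed median was 1.72 times the sum of the other 2. Distinct genes had a median of 4459 in mixed droplets, 1724 in B cells and 2597 in macrophages. The rule itself asks for a minimum of 2 raw sums, which favours deep droplets, and its part in these medians was not tested. At the shared depth of 2000 UMIs the difference was small: mixed droplets had a median of 1069 genes, B cells 963 and macrophages 1034. Mitochondrial UMIs were a median of 5.57% in mixed droplets, 4.75% in B cells and 4.29% in macrophages.

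**Figure D2:**
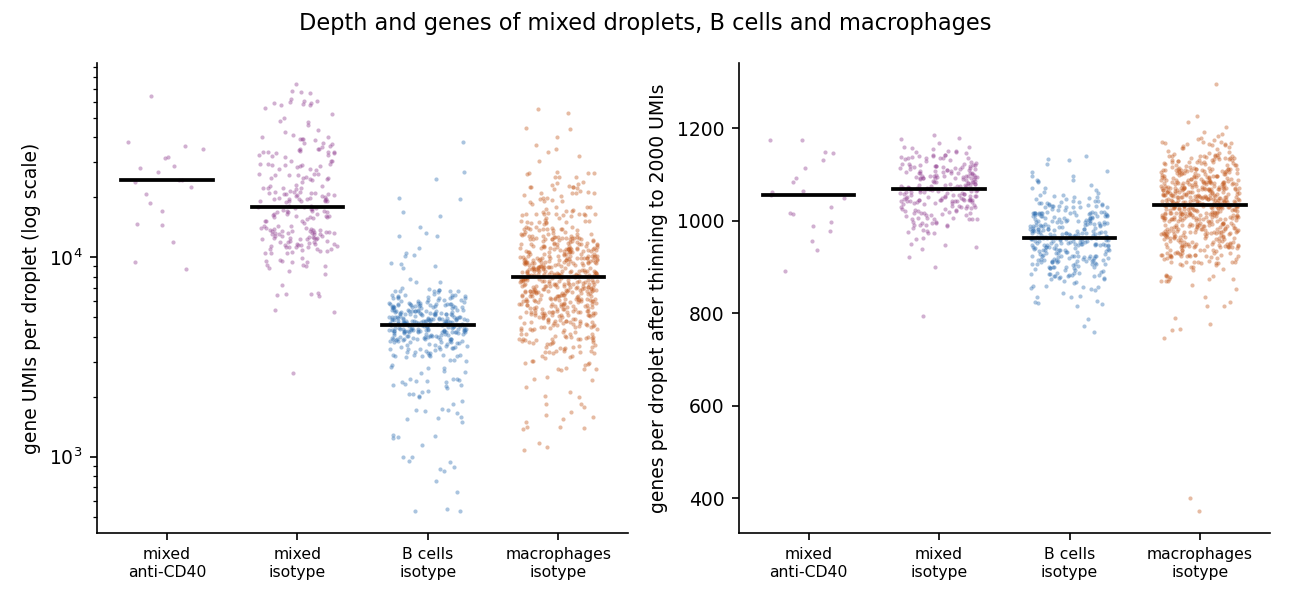
Gene UMIs per droplet on a log scale (left) and genes per droplet after thinning to 2000 UMIs (right), 1 point per droplet with the median as a bar, for mixed droplets of both libraries and for B cells and macrophages of the isotype library; droplets under 2000 UMIs are left out on the right. The isotype medians are 17857.5, 4576.5 and 7920 UMIs, and 1069, 963 and 1034 genes after thinning.

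Antibody tags are DNA-barcoded antibodies that report proteins on the cell surface, and the rule did not use them. In the isotype library the tag for IgD, the antigen receptor form of mature naive B cells, had a median of 350.5 UMIs in mixed droplets, 166.5 in B cells, 3 in macrophages and 2 in NK-like droplets. The tag for CD79b had 115, 61, 1 and 0 UMIs in the same order, and the tag for B220, the B cell form of CD45, 50.5, 25, 1 and 1. On each of these tags the mixed droplets had about the B cell level or more, per droplet.

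The tag for CD14, a receptor for bacterial lipopolysaccharide, had a median of 119.5 UMIs in mixed droplets, 3 in B cells, 72 in macrophages and 3 in NK-like droplets. The tag for SIRPα, an inhibitory receptor of phagocytes, had 113.5, 1, 69 and 0 UMIs. CD163, the scavenger receptor for haemoglobin, had 321, 4, 91 and 3 UMIs. Tim-4, a receptor for dying cells, had 52, 0, 9 and 0 UMIs. Folate receptor beta, which was not on the list of 15 macrophage tags, had 830.5, 7, 173 and 4. Mixed droplets were therefore at or above the macrophage median on every one of these tags. Most other tags on that list are not reported singly here. The panel held 2 tags for F4/80, normally read as a macrophage protein. One had 1371 UMIs in mixed droplets, 220.5 in B cells, 725 in macrophages and 7 in NK-like droplets, so B cells were also above the NK-like level on it, and the other had 4, 0, 2 and 0 UMIs. The 9 control antibodies summed to a median of 6 UMIs per mixed droplet, 1 per B cell and 2 per macrophage, so nonspecific binding also followed depth but stayed small beside the IgD and CD14 tags.

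**Figure D3:**
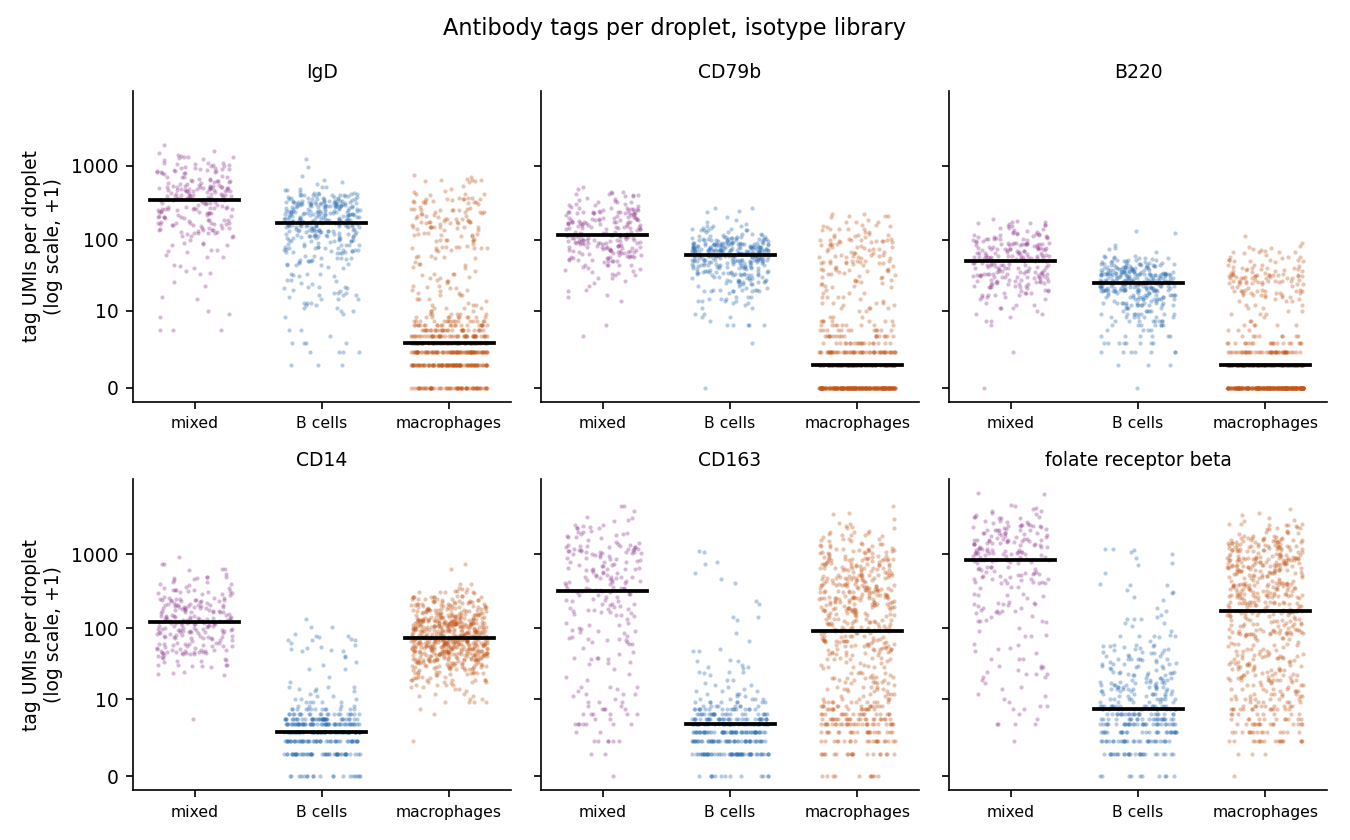
Tag UMIs per droplet on a log scale with 1 added for 3 B cell proteins (top) and 3 macrophage proteins (bottom) in mixed droplets, B cells and macrophages of the isotype library, 1 point per droplet with the median as a bar. Mixed droplets have medians of 350.5 UMIs for IgD and 119.5 for CD14, and part of the macrophages forms a second cloud at the B cell level of IgD, CD79b and B220.

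Thresholds were set in 2 ways, with IgD chosen after its values were seen. Above the 95th percentile of NK-like droplets, IgD and CD14 were found together on 230 of 234 mixed droplets (98.3%, 95.7 to 99.5). The same held for 49 of 360 B cells (13.6%, 10.2 to 17.6) and 203 of 619 macrophages (32.8%, 29.1 to 36.6). With IgD set against the 95th percentile of macrophages and CD14 against that of B cells, both were exceeded in 46.6% of 234 mixed droplets (40.1 to 53.2). That share was 11.1% per 10000 tag UMIs, 19.1% among droplets of 5000 to 15000 gene UMIs and 20.1% at the 99th percentile. Over the whole lists, at least 3 of 13 B cell tags and 3 of 15 macrophage tags passed these stricter thresholds in 178 mixed droplets (76.1%, 70.1 to 81.4), 14 B cells (3.89%), 41 macrophages (6.62%) and 0 NK-like droplets, which allows a share of up to 2.83%. B cell tags alone reached 3 in only 87 of 360 B cells (24.2%, 19.8 to 28.9), against 180 of 234 mixed droplets (76.9%, 71.0 to 82.2). Mixed droplets held more tag UMIs than B cells, and the part of depth in these counts was not tested.

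B cell tags reached into the macrophages that the rule had left out. IgD was above the NK-like level on 204 of 619 macrophages (33.0%, 29.3 to 36.8), with a median of 97.5 UMIs, against 2 UMIs on the other 415. Of macrophages with 0 B cell UMIs, 67 of 309 (21.7%, 17.2 to 26.7) carried it. The share was 35.6% with 1 UMI, 45.2% with 2, 66.7% (53.7 to 78.0) with 3 or 4, and 100% in the 25 mixed droplets with 5 to 9. The IgD-positive macrophages were also deeper, with a median of 9448 gene UMIs, against 7192 in the others, and the part of depth in this was not tested. The surface tag thus did not stop at the transcript limit of the rule.

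The next comparison asked whether any gene of mixed droplets lay outside what a blend of the 2 classes would hold. UMIs were summed per class, and log2 ratios were taken after adding 10 CPM to both sides, which understates changes of low genes. Against B cells, 899 of 10092 genes were at least 2-fold higher in mixed droplets (8.91% of genes) and 145 lower (1.44%), in all 10.3% at 2-fold and 24.1% at 1.5-fold. The highest ratios were those of macrophage genes: Pf4, a chemokine of platelets and resident macrophages, at 1517 CPM in mixed droplets and 49.2 in B cells (log2 ratio 4.69), then Apoe, Folr2, Lyve1 and Cd14. Against macrophages, 202 of 10943 genes were at least 2-fold higher (1.85%) and 9 lower (0.0822%), in all 1.93% at 2-fold and 5.54% at 1.5-fold. Here Igkc, the kappa light chain, led with 3244 CPM in mixed droplets and 131 in macrophages (log2 ratio 4.53), followed by Ly6d and the lambda chain genes Iglc1, Iglc2 and Iglc3. The lambda constant genes are near copies of one another and may share reads. The rule used these contrasts, so nothing is read from them.

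A weighted mean was then formed in which the 25 B lineage genes summed to their mixed level. It took 35.6% of B cells and 64.4% of macrophages. The macrophage list gave a weight of 29.5% for B cells, least squares over all genes 35.2% and least squares over the 198 tags a fraction of 0.317. At the mixed median depth, 35.6% comes to 6358 UMIs of B cell type and 11500 of macrophage type, which are above the B cell median of 4576.5 and the macrophage median of 7920. Droplets varied: the weight per droplet had quartiles of 24.2, 37.1 and 52.0%, with 19 droplets under 10% and 8 over 90%. Set from the macrophage list it was under 10% in 48 droplets and over 90% in 0, with quartiles of 12.5, 32.5 and 55.4%. The weight ran from 1.78 to 113.7% by the B lineage list and from -71.3 to 89.8% by the macrophage list. Some of these values cannot be shares, so the weight of a single droplet is only a rough index. Over the 234 mixed droplets the UMIs of the B lineage list and the macrophage list were weakly related (Spearman's rho 0.27), and per gene UMI they ran against each other (rho -0.46). These are descriptions over droplets of 1 library, which share its depth.

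Against this mean, 0 of 11173 genes were at least 2-fold higher in mixed droplets and 6 were at least 2-fold lower (0.0537% of genes). At 1.5-fold it was 29 genes (0.26%). The median log2 ratio over all genes was 0.03, with 6428 genes (57.5%) above the mean by any amount and 4745 (42.5%) at or below it. The 6 lower genes were Gzma, Dcn, Ccl5, Ccl22, Nkg7 and Chil3. Dcn, Ccl22, Nkg7 and Chil3 were singled out after their values were seen. Gzma, a granzyme of NK cells and cytotoxic T cells, had 10.1 CPM (7.58 to 13.2) in mixed droplets, 97.2 in B cells and 73.8 in macrophages (log2 ratio to the mean -2.20). Without thinning, a UMI of it was seen in 10.3% of mixed droplets, 8.61% of B cells and 8.89% of macrophages. Ccl5, a chemokine of the same cells, had 50.4 CPM (44.5 to 56.9) in mixed droplets, 174 in B cells and 143 in macrophages (-1.44). Dcn, the matrix proteoglycan decorin made by fibroblasts, had 3.05 CPM in mixed droplets, 2.26 in B cells and 55.2 in macrophages (-1.83). Gzma and Ccl5 were thus lower in mixed droplets than in both classes. The Gzma shares were not taken at 1 depth and mixed droplets were the deepest class, so their likeness does not show equal detection. The cap on Cd3 genes does not remove NK cells from any class, and its part in these lower levels was not tested.

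**Figure D4:**
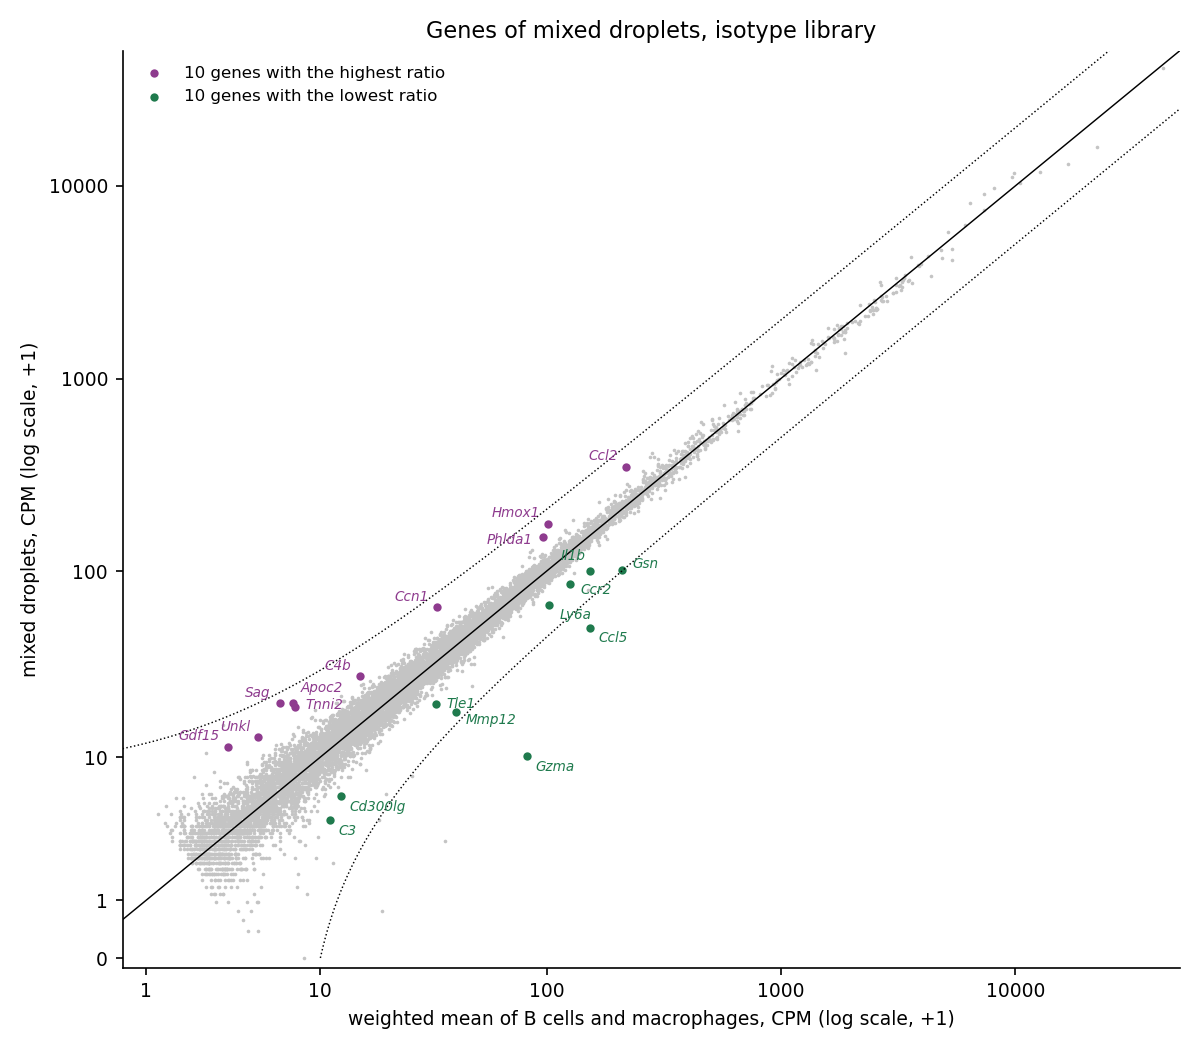
CPM of each tested gene in mixed droplets (vertical) against the weighted mean of 35.6% B cells and 64.4% macrophages (horizontal), isotype library, on log scales with 1 added; the solid line marks equality and the dotted lines a 2-fold difference after adding 10 CPM. Named genes are the 10 highest and 10 lowest ratios that met the minimums of 30 UMIs and 5% of droplets; Gzma at a log2 ratio of -2.20 lies farthest out and none is above the upper line.

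Some marker lists of other cells were also below the blend, while others were near or above it. All 10 NK cell genes were below it, against 42.5% of all genes, with a median log2 ratio of -0.61, and the list summed to 42.4 CPM in mixed droplets, 184 in B cells and 174 in macrophages. All 7 tested endothelial genes and all 8 tested cardiomyocyte genes were below it too, with medians of -0.14 and -0.17. The endothelial level of macrophages came largely from 5 of 619 droplets, which held 476 of their 665 endothelial UMIs (71.6%). Fibroblast genes had a median of -0.99 over 3 tested genes and summed to 112 CPM in mixed droplets, 60.5 in B cells and 376 in macrophages. The gene at that median was Gsn, the actin-severing protein gelsolin, and its ratio was -0.17 under the stricter filter of 500 genes and 5% mitochondrial UMIs. It was -0.23 among droplets of 5000 to 15000 gene UMIs and -0.15 without B cells and macrophages that held tags of both kinds. Of 10 conventional dendritic cell genes 9 were above the blend, against 57.5% of all genes (median 0.23), led by Xcr1, the receptor for XCL1, at 7.64 CPM in mixed droplets, 3.96 in B cells and 1.22 in macrophages. It was seen in 3.42% of mixed droplets. Of 5 tested neutrophil genes 4 were above the blend (median 0.03), and of 5 tested plasmacytoid dendritic cell genes 2 were (median -0.02).

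Among the 10 highest ratios to the weighted mean, none reached 2-fold after 10 CPM was added to both sides. With 1 CPM added, 20 genes did. Under the stricter filter Ccl2 reached a log2 ratio of 1.33, Hmox1 1.18, Sag 1.12 and Apoc2 1.11. Sag, the arrestin of photoreceptors, had 19.9 CPM in mixed droplets, 3.96 in B cells and 7.82 in macrophages (log2 ratio 0.86). Ccn1, a secreted matrix protein of the early growth response, had 65.1, 3.96 and 49.9 CPM (0.79). Hmox1, the haem-degrading oxygenase, had 177, 9.61 and 152 CPM (0.75). Ccl2, the chemokine that attracts monocytes, had 351, 36.2 and 322 CPM (0.65). For Ccn1, Hmox1 and Ccl2 the mixed level was thus somewhat above that of macrophages alone, although macrophages make up only part of the blend. The others were Apoc2, Tnni2, Gdf15, Unkl, C4b and Phlda1, at log2 ratios of 0.59 to 0.79. Taken with no CPM added, Sag was 3.08 times the weighted mean, Apoc2 2.71, Tnni2 2.52, Gdf15 3.32 and Unkl 2.60 times. Among droplets of 5000 to 15000 gene UMIs, Apoc2 and Tnni2 were below the blend, at -0.29 and -0.18, and Hmox1 was at 0.22.

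Of the 25 genes of the macrophage list 18 were above the blend, against 57.5% of all genes, with a median log2 ratio of 0.10. This depended on the settings. With the weight taken from the macrophage list itself 11 were above it (median -0.02), and with median of ratios scaling 12 were (median -0.01). Macrophage genes were then split by the kind of macrophage they mark. Of 12 genes of resident heart macrophages, which renew themselves locally, 10 were above the blend, against 57.5% of all genes, with a median log2 ratio of 0.17; with the weight taken from the macrophage list it was 8 of 12 and 0.06. Lyve1, a hyaluronan receptor of macrophages along vessels, led with 413 CPM in mixed droplets, 12.4 in B cells and 432 in macrophages (0.53). Folr2, which encodes folate receptor beta, had 394, 10.7 and 442 CPM (0.44). Timd4, which encodes Tim-4, had 69.3, 4.52 and 90.7 CPM (0.18). Of 10 genes of monocyte-derived macrophages 7 were below the blend, against 42.5% of all genes (median -0.10). Ccr2, the receptor that brings monocytes into tissue, had 85.7 CPM in mixed droplets, 42.4 in B cells and 173 in macrophages (-0.51). Outside this list Il1b, an inflammatory cytokine, had 101, 25.4 and 225 CPM (-0.57), but among droplets of 5000 to 15000 gene UMIs it was above the blend (0.34).

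Antigen presentation genes as a sum were lower than in either class. Of 8 MHC class II genes 7 were below the blend, against 42.5% of all genes (median -0.24), and the list summed to 24581 CPM in mixed droplets, 27707 in B cells and 33141 in macrophages. Cd74, the invariant chain that guards the peptide groove, had 12950 CPM in mixed droplets, 16510 in B cells and 16980 in macrophages (-0.38). H2-Aa, an MHC class II alpha chain, had 4144, 4506 and 5848 CPM (-0.37). H2-Eb1 and H2-Ab1 lay between the classes, with 3422 and 3157 CPM in mixed droplets, 3118 and 2543 in B cells and 5095 and 4208 in macrophages. Ciita, the factor that switches these genes on, was above the blend with 179, 225 and 129 CPM (0.13).

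B cell genes were split in the same way. Of 10 follicular B cell genes 9 were above the blend, against 57.5% of all genes (median 0.13). Cxcr5, the receptor that leads B cells into follicles, had 48.9 CPM in mixed droplets, 105 in B cells and 3.30 in macrophages (0.25), and S1pr1, which draws lymphocytes out of tissue, 123, 164 and 58.2 CPM (0.33). Among droplets with 500 or more genes and a mitochondrial share below 5%, 5 of the 10 were above the blend. Germinal centre and plasma cell lists sat at the blend, with medians of 0.05 over 10 genes and 0.01 over 6. Switched heavy chain genes had 2.10 CPM in mixed droplets, 10.2 in B cells and 0.695 in macrophages, and none had enough UMIs to be tested. Ly6d, a surface protein of B cells, had 537 CPM in mixed droplets, 1817 in B cells and 15.5 in macrophages (-0.28), and Ly6a 66.8, 257 and 17.0 CPM (-0.55).

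Receptors and bridging proteins for dying cells stayed close to the blend, with 9 of 14 genes above it, near the 57.5% of all genes, and a median of 0.08. Gas6, which bridges dying cells to Mertk, had 239 CPM in mixed droplets, 9.61 in B cells and 279 in macrophages (0.37), and Mertk 48.5, 2.26 and 58.4 CPM (0.27). Axl, the related receptor, had 86.3, 2.83 and 147 CPM (-0.13). The 18 lysosome genes had a median of 0.00, the 17 adhesion genes -0.02 and the 14 apoptosis genes 0.05. Of 16 genes induced by tissue dissociation 15 were above the blend, against 57.5% of all genes (median 0.16), led by Ier3 with 393 CPM in mixed droplets, 48.1 in B cells and 404 in macrophages (0.49). Among droplets with 500 or more genes and a mitochondrial share below 5%, 9 of the 16 were above it and the median was 0.04, against 0.03 over all genes.

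Tags were put on a scale of UMIs per 10000 tag UMIs and set against a weighted mean of their own. Its B cell weight was the fraction of 0.317 from least squares over the 198 tags, not the weight from the genes. That weight was fitted to the tags of the mixed droplets, so closeness to this mean is no separate check of the gene result. Folate receptor beta had a log2 ratio of 0.30, Tim-4 0.26, CD163 0.06 and IgD 0.12. The lowest were CD117, at 1.84 per 10000 in mixed droplets, 1.70 in B cells and 79.3 in macrophages, then CD34, Ly49D, a T cell receptor V beta chain and CD49b. The CD117 gap came from 1 droplet, which held 21196 of the 21608 CD117 UMIs of macrophages. The highest were CD103, Gr-1, CCR8, XCR1 and CD90-2, with ratios of 0.41 to 0.98 and medians of at most 3 UMIs in mixed droplets.

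Transcripts of both sexes gave a measure that neither rule nor markers used. Xist is transcribed from the silenced X chromosome of female cells, and Ddx3y, Eif2s3y, Uty and Kdm5d lie on the Y chromosome. Both kinds were present in both libraries. At least 3 Xist UMIs and at least 1 UMI of a Y-linked gene stood together in 130 of 234 isotype mixed droplets (55.6%, 48.9 to 62.0), 7 of 360 B cells (1.94%, 0.785 to 3.97), 54 of 619 macrophages (8.72%, 6.62 to 11.2) and 2 of 106 NK-like droplets (1.89%, 0.229 to 6.65). A further 53 mixed droplets had the Xist minimum and 0 UMIs of Y-linked genes, and 28 had Y-linked UMIs and 0 of Xist.

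**Figure D5:**
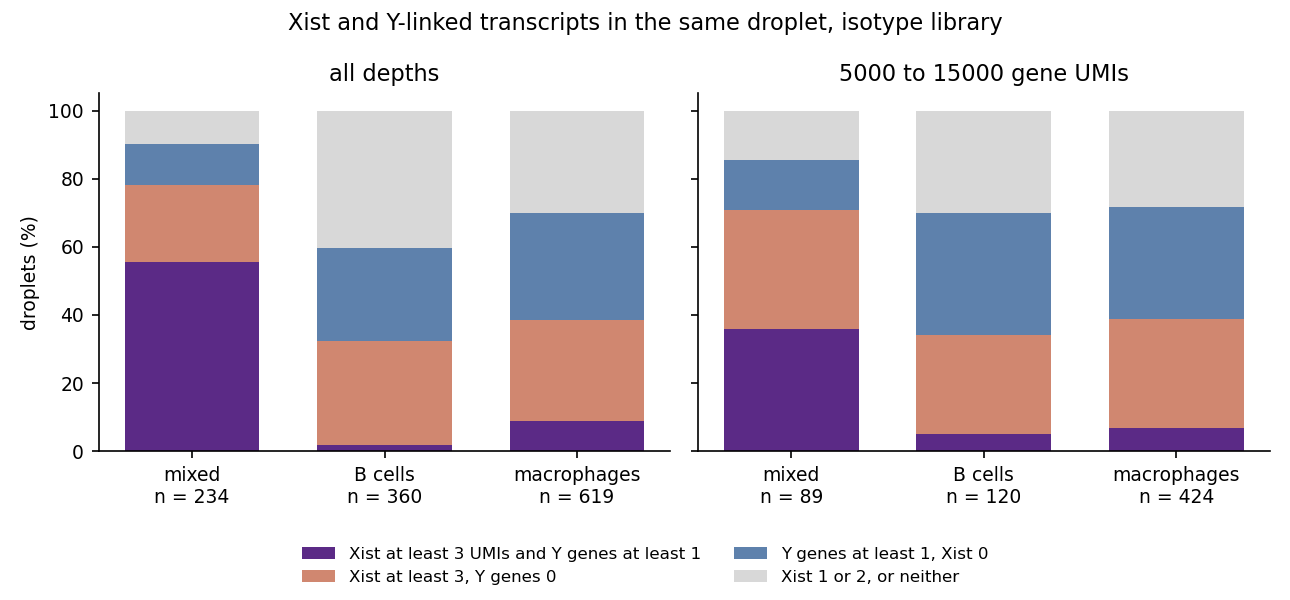
Share of droplets by Xist and Y-linked UMIs (Ddx3y, Eif2s3y, Uty and Kdm5d summed) in mixed droplets, B cells and macrophages of the isotype library, for droplets of all depths (left) and of 5000 to 15000 gene UMIs (right). The class with both covers 55.6, 1.94 and 8.72% of droplets at all depths and 36.0, 5.00 and 6.84% within the window.

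Depth raises the chance of seeing both, so the shares were taken again at limited depth. Among droplets of 5000 to 15000 gene UMIs both were present in 32 of 89 mixed droplets (36.0%, 26.1 to 46.8), 6 of 120 B cells (5.00%, 1.86 to 10.6) and 29 of 424 macrophages (6.84%, 4.63 to 9.68). Median depths in this window were 11901 UMIs in mixed droplets, 5787.5 in B cells and 8267.5 in macrophages. After thinning to 2000 UMIs, at least 1 UMI of each stood together in 19 of 234 mixed droplets (8.12%, 4.96 to 12.4), 5 of 331 B cells (1.51%, 0.492 to 3.49), 13 of 604 macrophages (2.15%, 1.15 to 3.65) and 0 of 102 NK-like droplets, which allows a share of up to 2.94%. The share was higher in mixed droplets at each depth, and mixed droplets were also the deeper ones within the window. Among macrophages it was 37 of 204 with the IgD tag (18.1%, 13.1 to 24.1) and 17 of 415 without it (4.10%, 2.40 to 6.48). It was 23.8% in the 63 macrophages with 3 or 4 B cell UMIs, 48.0% in the 25 mixed droplets with 5 to 9, 35.3% in the 17 with 10 to 19, 51.2% in the 84 with 20 to 39, and 63.9% in the 108 with 40 or more, whose median depth was 20958.5 UMIs.

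Antibody genes could not count the B cells in a droplet. Variable segments, which differ from one B cell clone to the next, summed to 281 UMIs in the 234 mixed droplets, against 23342 UMIs of constant segments. The labels give a 5′ chemistry, while the tags carry TotalSeqA names, which are usual for 3′ kits. Which transcript end was read could not be settled here, so the low counts of variable segments say nothing about clones. A variable gene with at least 3 UMIs was found in 8 mixed droplets (3.42%, 1.49 to 6.63), 6 B cells (1.67%) and 0 macrophages. Kappa and lambda constant chains, of which a B cell normally makes only one, each had at least 5 UMIs in 202 mixed droplets (86.3%, 81.2 to 90.5), 289 B cells (80.3%, 75.8 to 84.3) and 4 macrophages (0.646%). Since B cells showed both chains nearly as often, the pair says nothing particular to mixed droplets.

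The 21 anti-CD40 mixed droplets were set beside the 234 isotype ones. Their median depth was 24334 gene UMIs (lowest 8698, highest 64547), against 17857.5 in the isotype library, and after thinning 1056 against 1069 genes. B cells weighed 24.5% in them by the B lineage list, using the 12 B cells and 2092 macrophages of their own library, but only a fraction of 0.0266 by least squares over the 198 tags. At least 3 B cell tags passed the thresholds set in the isotype library in 7 of 21 anti-CD40 mixed droplets (33.3%, 14.6 to 57.0). The same thresholds were passed in 180 of 234 isotype mixed droplets (76.9%, 71.0 to 82.2) and in 0 of 12 anti-CD40 B cells (0 to 26.5). IgD tags had a median of 17 UMIs in anti-CD40 and 350.5 in isotype mixed droplets, B220 11 and 50.5, CD163 60 and 321, and Tim-4 54 and 52. The CD40 tag had a median of 78 UMIs in anti-CD40 and 40 in isotype mixed droplets. IgD showed the widest gap of these tags, and Tim-4 none. Xist and Y-linked UMIs stood together in 9 of 21 anti-CD40 mixed droplets (42.9%, 21.8 to 66.0), against 195 of 2092 macrophages of that library (9.32%, 8.11 to 10.6), whose median depth was 11581.5 UMIs. Among droplets of 5000 to 15000 gene UMIs it was 1 of 5 mixed droplets (20.0%, 0.505 to 71.6) and 49 of 1106 macrophages (4.43%, 3.30 to 5.82). After thinning it was 3 of 21 mixed droplets (14.3%, 3.05 to 36.3) and 29 of 2071 macrophages (1.40%, 0.940 to 2.00).

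Ratios between the libraries also used 10 CPM on both sides. Of 9852 genes with enough UMIs, 329 were at least 2-fold higher in anti-CD40 mixed droplets (3.34% of genes) and 434 lower (4.41%). Genes of the interferon-gamma response, which arms macrophages against intracellular microbes, were the clearest group: 21 of 24 were at least 2-fold higher and 0 lower, with a median log2 ratio of 2.70, against -0.11 over all genes. Cxcl9, a chemokine for activated T cells, had 520 UMIs in 19 of 21 anti-CD40 mixed droplets (978 CPM, 895 to 1065), against 26 UMIs (4.96 CPM, 3.24 to 7.27) in the isotype ones. Iigp1, an interferon-induced GTPase, had 865 CPM and was seen in 21 of 21 anti-CD40 droplets, against 11.6 CPM in the isotype ones. Gbp2b, a guanylate-binding protein, had 246 CPM, against 0.573 in the isotype ones. The list's median in macrophages was 2.61, so mixed droplets and macrophages had a similar gap between the libraries.

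Genes of resident macrophages were lower: 9 of 12 were at least 2-fold lower and 0 higher, with a median of -1.85, against -2.37 in macrophages. Fcrls had 18.8 CPM in anti-CD40 and 220 in isotype mixed droplets (log2 ratio -2.99), Pf4 305 and 1517 (-2.28), and Lyve1 94.0 and 413 (-2.02). Timd4 had 60.2 and 69.3 CPM (-0.18). B lineage genes were also lower: 13 of 25 at least 2-fold and 0 higher (median -1.055, against -0.881 in macrophages). Of follicular B cell genes 8 of 10 were at least 2-fold lower, with a median of -1.44, against -1.16 in macrophages. Ighd, the IgD heavy chain, had 111 CPM in anti-CD40 and 424 in isotype mixed droplets, and Ccr7, which guides cells to lymph nodes, 26.3 and 146. Of 16 dissociation genes 11 were at least 2-fold lower (median -1.09, against -1.23 in macrophages). Of 8 MHC class II genes 2 were at least 2-fold higher, with a median of 0.95, against 0.77 in macrophages.

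Cell cycle genes were higher in the anti-CD40 droplets: 9 of 15 at least 2-fold, with a median of 1.20, against 0.53 in macrophages. Mki67, a marker of dividing cells, had 145 UMIs in 14 of 21 anti-CD40 droplets (273 CPM), against 297 UMIs in 8.55% of isotype droplets (56.7 CPM). Genes of another cell type moved with this contrast. Endothelial genes summed to 1038 CPM (953 to 1128) in anti-CD40 and 54.8 (48.6 to 61.5) in isotype mixed droplets, and to 243 CPM in anti-CD40 and 116 in isotype macrophages. Of 7 tested endothelial genes 6 were at least 2-fold higher in anti-CD40 mixed droplets, with a median of 2.58. Fabp4, a lipid carrier of endothelium and macrophages, gave 342 of these UMIs in 5 of 21 droplets, and Kdr and Flt1, receptors for VEGF, were each seen in 5. In all, 4 of the 21 droplets held 545 of the 552 endothelial UMIs (98.7%), against 7 of 234 that held 140 of 287 (48.8%) in the isotype library. Without these droplets the interferon-gamma count was 23 of 24 and the resident macrophage count 10 of 12 (median -2.12). The cell cycle count was then 5 of 15 (median 0.74), against 9 of 15 with them. With 1 library each, treatment and preparation cannot be told apart.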

How the data were processed

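The authors deposited raw UMI counts per barcode for 32285 genes and 198 antibody tags in each of 2 libraries. Per the file headers they came from Cell Ranger 6.0.1; the submitters' processing notes list Cell Ranger 3, Seurat 3, mm10 and GRCh38, with no roles, and per the labels the chemistry was 10x Genomics 5′ V1.1. How barcodes were selected before deposit is not given in the sources used here. The barcodes kept had 200 or more genes and a mitochondrial share below 10%, 4278 of 7087 (anti-CD40) and 2558 of 4908 (isotype), holding 47485251 and 22687435 gene UMIs.

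Members and lists were chosen with earlier results of these data known. Counts were summed per class and scaled to CPM. Genes with at least 30 UMIs in the classes compared were counted as tested, and a log2 ratio used a prior of 10 CPM; called means 2-fold. Named genes are the 10 highest and lowest ratios to the weighted mean and between libraries, and the 5 highest and lowest against B cells and macrophages, with at least 30 UMIs and detection in 5% of droplets. Passed over were the rule's own genes, unnamed gene models, sex-linked genes and those of mitochondria, ribosomes, haemoglobin and antigen receptor segments; list genes could always be named. Shares carry Clopper-Pearson and CPM Poisson 95% intervals (scipy 1.17.1, numpy 2.4.6, pandas 2.3.3). The limit beside a share of 0 is 3 counts. The weighted mean was checked on simulated sums drawn from the same kind of blend. B lineage genes and low genes were left unchanged there, so the check does not bear on those genes or on variation between droplets. Alternatives changed the filter, the rule, the depth, the prior, the scaling, the minimums, the fold, the weight and the tag thresholds. Values of some list members are not reported here.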

Additional observations from a re-analysis of the deposited data

How the results depend on the processing

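No paired analysis was possible because each group is 1 library and no result comes from a test. Among droplets with 500 or more genes and a mitochondrial share below 5%, mixed droplets were 6.31% of isotype droplets and 29.3% of those with B cell genes. Their thinned median was 1083 genes, IgD passed in 59.8%, CD14 in 98.9% and both in 59.8%, and Xist met Y-linked UMIs in 44.8% of mixed droplets and 5.53% of macrophages. That filter gave 14 genes lower than macrophages, 8 higher and 10 lower than the weighted mean, and 907 lower in anti-CD40 than in isotype mixed droplets. With no mitochondrial limit the isotype share was 5.35% and CD14 passed in 77.4%. Minimums of 10 and 40 UMIs gave 7.62% and 2 genes higher than the weighted mean. Minimums of 3 and 10 gave 1.12% in the anti-CD40 library, 12.4% in the isotype library and 43.8% of isotype droplets with B cell genes, and the thinned rule gave 11.2%. IgD, CD14 and both passed in 25.2, 56.0 and 11.1% per 10000 tag UMIs, in 20.9, 68.4 and 20.1% at the 99th percentile, in 32.6, 53.9 and 19.1% at 5000 to 15000 gene UMIs, and in 98.7, 99.6 and 98.3% against NK-like droplets. Within that depth window Xist met Y-linked UMIs in 36.0% of mixed droplets and 5.00% of B cells, and 65 genes were lower than macrophages and 6 higher than the weighted mean. With minimums of 5 and 2 UMIs the sex transcripts met in 36.3% of mixed droplets, 0.278% of B cells and 3.39% of macrophages. A variable gene was found in 12.4% of mixed droplets at 2 UMIs and 0.427% at 5. A prior of 1 CPM gave 1682 genes higher and 361 lower than B cells, 458 higher and 117 lower than macrophages, 20 higher and 41 lower than the weighted mean, and 526 higher and 1308 lower in anti-CD40 than in isotype mixed droplets. At 1.5-fold it was 1830 and 600, 459 and 147, and 12 and 17 for the 3 comparisons within the isotype library. Without B cells and macrophages that held tags of both kinds, 1 gene was higher than the weighted mean. The cause of these moves was not tested. The weight of B cells stayed between 29.5 and 44.9%, and 17 of 20 genes named against the weighted mean had the same direction under 9 alternatives; Apoc2 and Tnni2 reached -0.29 and -0.18, and Il1b 0.34. The NK-like threshold, the sex transcript settings, the removal of droplets with tags of both kinds and the alternatives between the libraries were chosen after seeing the data. Only 21 anti-CD40 mixed droplets limit every value given for them.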
